A study of Homo sapiens with 9 samples.

Results

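Genes of human chromosome 4 are described here in their order along the chromosome. The members are the rows of the count table whose Ensembl ID lies on chromosome 4 of GRCh38 and which reached at least 1 CPM, a count scaled to the depth of its library, in at least 3 of 9 libraries. They number 505, of 60675 rows in the table and of 14637 rows that passed the same minimum on any chromosome. The chromosome was chosen because its genes were shifted as a whole between clones. Values from the 3 clone comparisons therefore describe the members and test nothing.

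RNA was sequenced from SC10, SC07 and SC01, subclones of SK-MEL-5, an established melanoma cell line with a mutated BRAF gene. SC10, SC07 and SC01 had 3 libraries each, all from cells that received no drug, and BRAF was mutated in all of them. Each subclone had been grown out of 1 cell by limiting dilution, so each group stands for 1 clone of the line. The labels say that the clones were chosen by their response to the BRAF inhibitor PLX-4720, but not which clone responded in which way. Nor do they state that replicate libraries were made from separate cultures. The spread between libraries may therefore be technical, and clone and culture or library batch cannot be told apart. Total counts ran from 30224066 to 39454087 per library. Of 7 melanocyte lineage genes, 6 were detected, and their summed level was 15150 to 15370 CPM in SC10 libraries, 24350 to 24850 CPM in SC07 libraries and 10720 to 11380 CPM in SC01 libraries. PMEL and DCT were the largest parts of that sum in each clone. TYRP1 was highest in SC01, at 2394 CPM on average, beside 1212 CPM in SC07 and 702 CPM in SC10. MLANA and MITF were highest in SC10, at 1514 and 550 CPM. SOX10, the seventh lineage gene, had 0 counts in all libraries. The cause is not known and was not tested, so absence of SOX10 from the cells is not read from this. Genes of endothelial cells summed to at most 24.3 CPM, genes of keratinocytes to at most 27.8 CPM and genes of immune cells to at most 3.82 CPM in any library. The fibroblast genes reached 363 to 401 CPM in SC10 libraries, 437 to 499 CPM in SC07 libraries and 161 to 168 CPM in SC01 libraries. Of that sum, LUM, which encodes lumican, made up 350.2 CPM on average in SC10, 462 CPM in SC07 and 131 CPM in SC01. COL1A1 and FBLN1 were highest in SC01, at 2.04 and 30.5 CPM, and COL1A2 and COL3A1 reached at most 0.0613 CPM in any clone. The part of these cell type markers in the differences described here was not tested.

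Tumour cell lines often gain or lose whole chromosomes or arms, and sister cells of 1 line can then carry different copy numbers. As background, most genes on a chromosome with an added copy are transcribed in proportion to the added dose, while genes under strong regulation can move freely around that dose. Chromosome 4 carries genes for receptor kinases, the cluster of CXC chemokines, the mitochondrial coactivator PPARGC1A and a large number of housekeeping genes. DNA copy number was not measured in these libraries.

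Of 2465 chromosome 4 rows, 1103 had 0 counts in every library and 857 had counts below the minimum. Of the 505 members, 436 were protein-coding genes, 29 were pseudogenes, 17 were antisense genes and 14 were lincRNAs. The short p arm held 165 members and the long q arm 340. The minimum was passed in all 9 libraries by 433 members and in exactly 3 libraries by 13. Where a member passed only through the libraries of a single clone, its difference from the other clones is tied to the minimum and supports nothing. Just inside it, judged by the third highest library, lay AC109588.1 at 1.01 CPM, AC114912.1 at 1.03 CPM and FAM53A at 1.03 CPM. Just outside lay HSP90AA4P at 0.991 CPM and SLC4A4, a bicarbonate transporter, at 0.963 CPM. The receptor kinase genes KIT and PDGFRA did not pass. For 67 members, more than 10% of the exon bases lay under another gene. Whether the counting used strand is not given in the sources used here, so reads of overlapping and antisense genes may be shared.

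The sequences before 3 starts are shown to describe genes named in the results, and no result rests on them. CXCL8 and CXCL1, chemokine genes adjacent in the order of members, had the largest falls in SC07 against SC01 among the protein-coding members named. G3BP2 and USO1 are a pair of strongly expressed genes that start back to back. The windows come from RefSeq (GRCh38.p14). The 250 bases before the start of CXCL8 span chr4:73740319-73740568 and those before CXCL1 span chr4:73869143-73869392, both on the plus strand. In these, capitals mark GGAATTTCC, a form of the site bound by NF-kB factors, and the TATA box TATAAA. The 67 bases between the 5′ ends of G3BP2 and USO1 span chr4:75724526-75724592 and are given on the minus strand, that of G3BP2, with each CG in capitals.
CXCL8: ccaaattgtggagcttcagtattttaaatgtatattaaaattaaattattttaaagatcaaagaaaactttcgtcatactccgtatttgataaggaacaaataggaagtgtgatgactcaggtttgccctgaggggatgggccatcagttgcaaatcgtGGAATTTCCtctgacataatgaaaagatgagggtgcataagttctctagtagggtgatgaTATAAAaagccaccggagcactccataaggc
CXCL1: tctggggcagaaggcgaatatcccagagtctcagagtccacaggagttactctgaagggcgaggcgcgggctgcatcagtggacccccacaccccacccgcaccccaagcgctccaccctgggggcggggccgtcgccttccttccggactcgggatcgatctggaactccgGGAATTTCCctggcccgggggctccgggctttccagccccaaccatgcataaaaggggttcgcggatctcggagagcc
G3BP2: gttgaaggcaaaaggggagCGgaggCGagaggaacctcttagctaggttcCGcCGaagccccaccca

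Chromosome 4 genes as a group were more highly expressed in SC07 and in SC10 than in SC01. The median log2 difference over the 505 members was 0.40 in SC07 against SC01, a median fold of 1.32, with quartiles of 0.08 and 0.77. It was 0.33 in SC10 against SC01, a median fold of 1.26, with quartiles of 0.02 and 0.73. Both comparisons use the same SC01 libraries, so they are not separate evidence. The medians over all genes tested were -0.01 in both comparisons. In bulk RNA, fewer cells with a transcript and less transcript per cell cannot be told apart.

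The shift was seen in each library. Set against the mean of SC01 libraries, the median over members was 0.35, 0.33 and 0.32 on the log2 CPM scale in SC10 libraries and 0.40, 0.40 and 0.39 in SC07 libraries. SC01 libraries, each set against the other 2 SC01 libraries, gave 0.02, -0.0054 and -0.0021. The ranges of SC07 and SC10 libraries did not overlap that of SC01 libraries, nor each other. Medians over the other chromosomes lay between -0.01 and 0.01 in all 9 libraries. Chromosome 4 took 2.26% ± 0.01 of all counts in SC10, 2.38% ± 0.03 in SC07 and 1.78% ± 0.02 in SC01 (SD, n = 3 each).

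**Figure D1:**
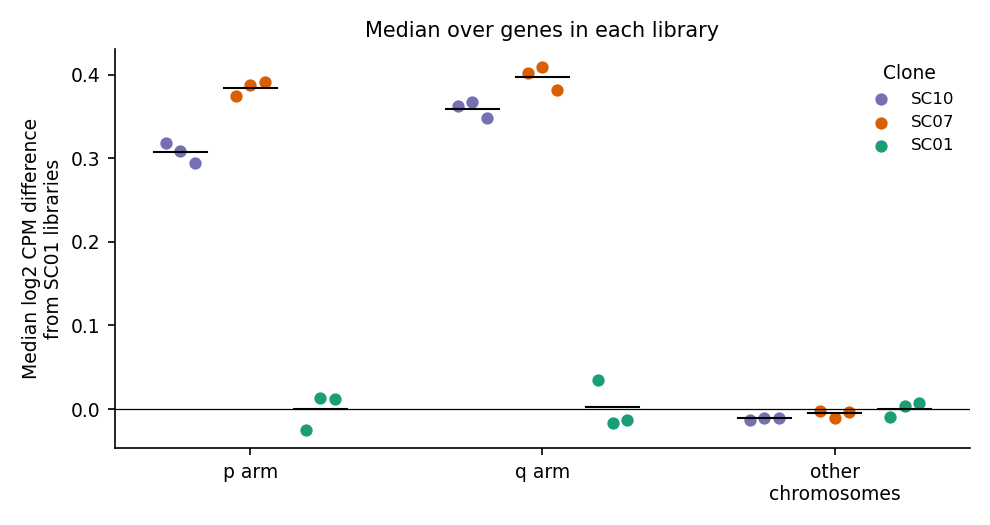
Median log2 CPM difference from SC01 libraries (vertical axis) over members of each arm and over genes of the other chromosomes (horizontal axis), with 1 point per library and a line at the mean of each clone. SC07 and SC10 libraries lie above 0.29 on both arms, SC01 libraries within 0.04 of 0, and all libraries near 0 over the other chromosomes.

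Both arms moved. In SC07 against SC01 the median log2 difference was 0.38 on the p arm and 0.40 on the q arm, and in SC10 against SC01 it was 0.30 and 0.34. The SC10 against SC07 medians were -0.11 on the p arm and -0.05 on the q arm. Over both arms this last median was -0.07, a median fold of 0.953, and without SC10 replicate 1 it was -0.04. On the log2 CPM scale SC10 libraries lay 0.08 to 0.11 below the mean of SC07 libraries on the p arm and 0.03 to 0.05 below it on the q arm.

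The shift was present at both ends of the chromosome and between them. In fixed windows of 10 Mb by gene start, 19 of 19 windows had a median above 0 in SC07 against SC01, from 0.24 to 0.73, and 19 of 19 in SC10 against SC01, from 0.16 to 0.51. In SC10 against SC07, 5 of 19 windows had a median above 0, with a range from -0.18 to 0.10. Windows held 8 to 81 genes. In windows of 5 Mb, 34 of 36 had a median above 0 in each comparison with SC01, and all 28 with at least 10 genes did. The window from 160 to 165 Mb, with 5 members, had medians of -0.39 in SC07 and -0.07 in SC10 against SC01, and that from 30 to 35 Mb, with 1 member, -1.30 and -0.78. Fitted as a stepped line over the 3 comparisons at once, the members formed a single segment from ZNF595 to FRG1. Doubling the penalty per step, or asking for at least 30 genes per segment, also gave a single segment. Once the main fit had no step, neither setting could add one, so neither is a check of it. With the penalty halved there were 6 segments, whose medians ran from 0.26 to 0.76 in SC07 against SC01 and from 0.18 to 0.44 in SC10 against SC01.

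**Figure D2:**
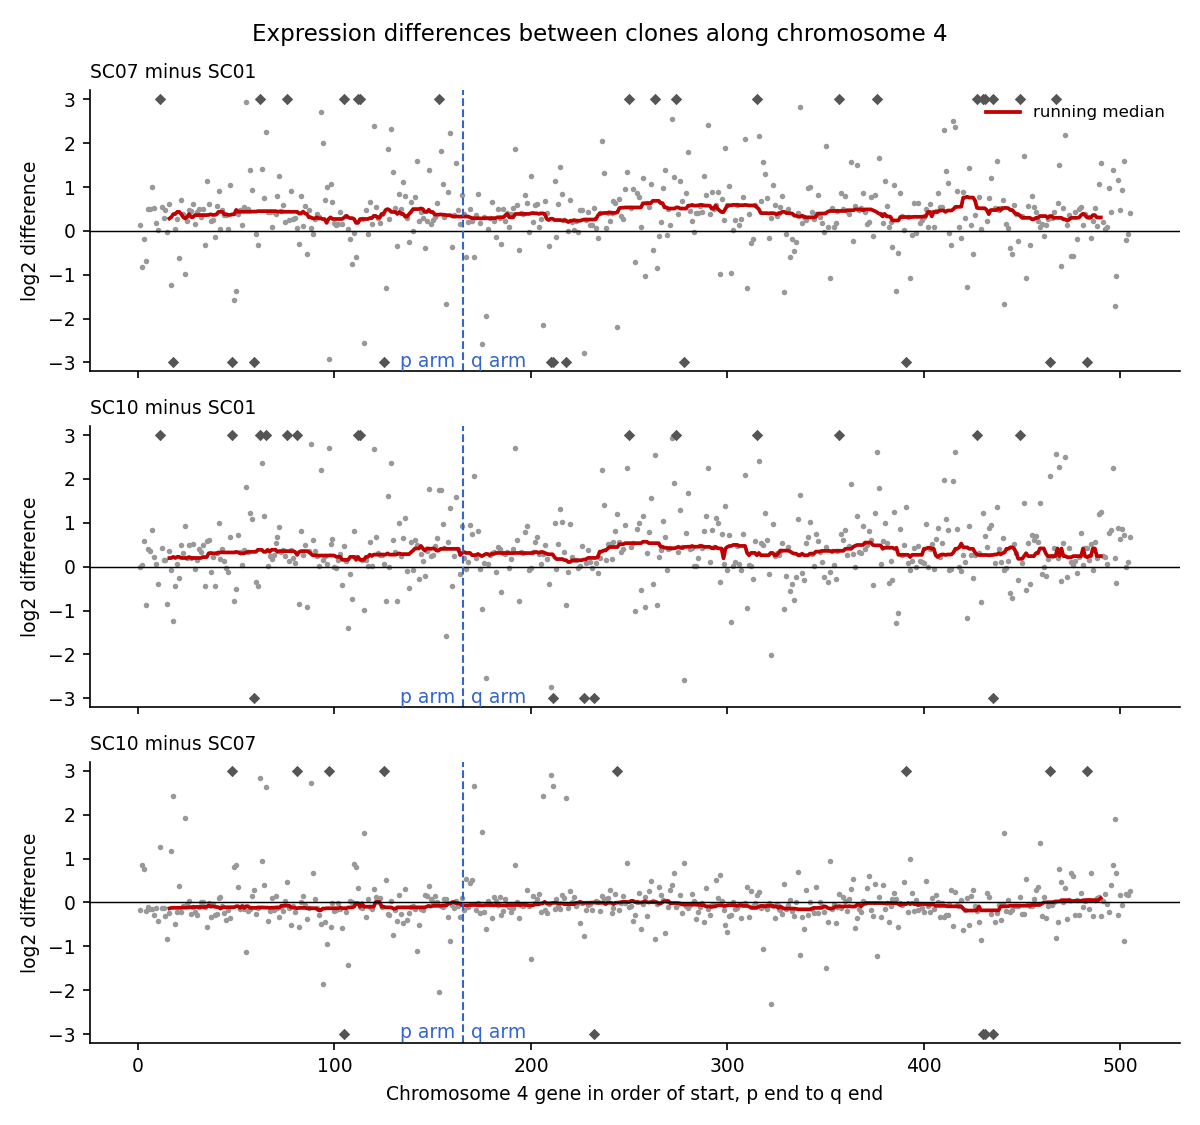
Log2 difference of each member (grey points) in order of start along chromosome 4, with the running median of 31 genes in red and the arm boundary as a dashed line. The panels show SC07 minus SC01, SC10 minus SC01 and SC10 minus SC07, and diamonds mark members beyond 3 in either direction. The running median stays above 0 at all 475 positions in the upper panels (0.18 to 0.78 and 0.11 to 0.57) and lies between -0.18 and 0.10 in the lowest.

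The windows that departed most from the rest were found in SC07. In SC10 against SC07 the window from 30 to 40 Mb, with 21 members, had a median of -0.18, the same as that from 150 to 160 Mb. The window from 150 to 160 Mb, with 30 members, had the highest median in SC07 against SC01, at 0.73, against 0.36 in SC10 against SC01. It holds 3 genes of low level in the other clones, PDGFC, GLRB and RXFP1, but higher values were not limited to them. From 155 to 160 Mb, with 13 members, the median in SC07 against SC01 was 0.76 and the lower quartile 0.52. From 150 to 155 Mb, with 17 members, these were 0.36 and -0.05. With the penalty halved, 15 members from PLRG1 to RAPGEF2 formed a segment of their own, with a median of 0.76 in SC07 against SC01 and 0.44 in SC10 against SC01. The lowest window in both comparisons with SC01 was that from 70 to 80 Mb, at 0.24 in SC07 and 0.16 in SC10, with 32 members. It holds the CXC chemokine cluster.

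PDGFC, a ligand of the platelet-derived growth factor receptors (chr4:156760454-156971394), had 1.14, 1.39 and 1.18 CPM in SC10 libraries, 11.6, 11.7 and 11.8 CPM in SC07 libraries and 0.632, 0.474 and 0.479 CPM in SC01 libraries. GLRB, the beta subunit of the glycine receptor (chr4:157076057-157172090), had 0.300, 0.326 and 0.295 CPM in SC10 libraries, 6.64, 6.08 and 6.90 CPM in SC07 libraries and 0.137, 0.158 and 0.269 CPM in SC01 libraries. Both genes were high in all SC07 libraries, and neither overlapped between SC07 and the other clones. They were named by a rule that asked for no overlap, so this is not a separate result. GLRB and RXFP1 reached 1 CPM in SC07 libraries only, so their separation is also tied to the minimum for members. The log2 difference in SC07 against SC01 was 4.45 ± 0.16 for PDGFC and 5.10 ± 0.23 for GLRB (the ± of a log2 difference is its standard error throughout). RXFP1, a relaxin receptor (chr4:158315311-158653372), had 0 counts in all SC10 libraries, 9.77, 8.69 and 9.13 CPM in SC07 libraries and 0.110, 0.063 and 0.120 CPM in SC01 libraries. With 3 counts over SC10 taken as the limit, RXFP1 was at least 319-fold lower in SC10 than in SC07, and at least 3.43-fold lower in SC10 than in SC01. FAM198B, which lies between GLRB and RXFP1, differed by 0.23 in SC07 against SC01, and CTSO, a cathepsin gene and the member before PDGFC, by 0.05 ± 0.22. Not all neighbours were flat. TMEM144, also between GLRB and RXFP1, lay 0.81 above the chromosome median in SC07 against SC01 and 0.62 above it in SC10 against SC01. Further out, ETFDH, a mitochondrial electron carrier, and LRAT, which esterifies retinol, were higher in both SC07 and SC10 than in SC01.

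Compared with the rest of the genome, chromosome 4 had the highest median of 23 chromosomes in SC07 against SC01, ahead of chromosome 18 at 0.32, chromosome 8 at 0.30 and chromosome 2 at 0.28. In SC10 against SC01 it ranked 3, below chromosome 8 at 0.46 and chromosome 18 at 0.33. Chromosome 6 was lowest in both, at -0.39 in SC07 and -0.41 in SC10. Chromosome 4 ranked 17 in SC10 against SC07. These ranks describe the values by which the chromosome was chosen.

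**Figure D3:**
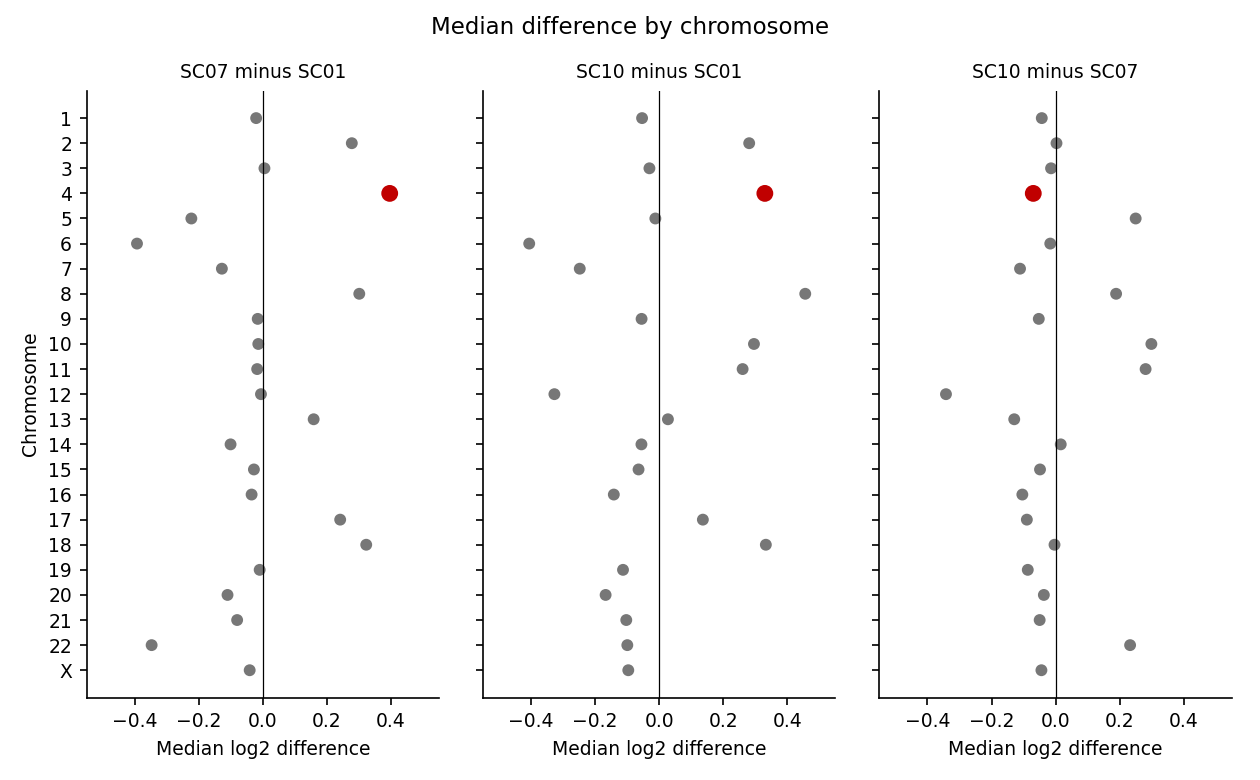
Median log2 difference (horizontal axis) over genes past the same minimum on each chromosome (vertical axis), for SC07 minus SC01, SC10 minus SC01 and SC10 minus SC07. Chromosome 4, the large red point, is at 0.40, 0.33 and -0.07.

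Counted by gene, 334 members were called higher and 70 lower in SC07 than in SC01 by edgeR's quasi-likelihood test (Benjamini-Hochberg adjusted p, threshold 0.05), and 101 were not called. Over all 18009 genes tested, 31.5% were called higher and 30.5% lower in that comparison. In SC10 against SC01, 313 members were called higher, 67 lower and 125 not, beside 33.5% higher and 32.4% lower over all genes. In SC10 against SC07, 101 were called higher, 147 lower and 257 not, beside 24.8% higher and 23.0% lower over all genes. Members pass a higher minimum than some of the genes tested. Among genes past the same minimum on other chromosomes, 34.5% were called higher and 34.1% lower in SC07 against SC01, and 36.1% higher and 36.4% lower in SC10 against SC01. Since the chromosome was chosen on these contrasts, nothing is read from the difference.

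Most members lay within 0.5 of the median on the log2 scale, a wide band that also takes in members with no difference between clones. It therefore does not show that these members share the shift, and the same share was not computed for other chromosomes. In SC07 against SC01, 316 of 505 members (62.6%) lay within 0.5 of the median on the log2 scale, 56 lay more than 1 above it and 44 more than 1 below it. For SC10 against SC01, 319 members (63.2%) lay within 0.5, 57 more than 1 above and 36 more than 1 below. In SC10 against SC07, 411 members (81.4%) lay within 0.5 of that comparison's median, with 28 and 15 more than 1 away. The 169 members of highest mean level had narrower quartiles than the 168 of lowest mean level. In SC07 against SC01 they were 0.21 and 0.75 at high level and -0.32 and 1.18 at low level, around medians of 0.43 and 0.30. Protein-coding members had medians of 0.43 in SC07 against SC01 and 0.34 in SC10 against SC01. The 69 members of other kinds, whose mean level reached at most 41.0 CPM, had medians of 0.08 and 0.10.

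The strongest genes showed 3 patterns. WDR1, a cofactor of cofilin in actin turnover (chr4:10074339-10116949), had 477, 456 and 490.3 CPM in SC10 libraries, 471, 451 and 483 CPM in SC07 libraries and 268, 272 and 272 CPM in SC01 libraries. ANXA5, a phospholipid-binding annexin (chr4:121667955-121697113), had 1274, 1241 and 1315 CPM in SC10 libraries, 1445, 1379 and 1454 CPM in SC07 libraries and 998, 1002 and 985 CPM in SC01 libraries. Neither gene overlapped between SC01 and the other clones. The log2 differences of WDR1 were 0.79 ± 0.04 in SC07 and 0.81 ± 0.04 in SC10 against SC01, and those of ANXA5 0.52 ± 0.04 and 0.36 ± 0.04.

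The large ribosomal protein gene RPL9 did not share the shift. It had 380.3, 370.1 and 456 CPM in SC10 libraries, 428, 412 and 433 CPM in SC07 libraries and 418, 421 and 437 CPM in SC01 libraries. RPS3A, of the small ribosomal subunit, had 467, 441 and 544 CPM in SC10 libraries, 484, 492 and 511 CPM in SC07 libraries and 516, 475 and 548 CPM in SC01 libraries. All clones overlapped for both genes, and neither was called against SC01. For RPS3A, 14.0% of exon bases lay under another gene. RPL34 had 171, 171 and 212 CPM in SC10 libraries, 198, 188 and 199 CPM in SC07 libraries and 213, 220.0 and 235 CPM in SC01 libraries. It was called lower than in SC01 both in SC07 (-0.19 ± 0.07) and in SC10 (-0.27 ± 0.07). SC10 replicate 3 was the highest SC10 library for all 3 genes. Without it RPL9 at -0.18 and RPS3A at -0.17 were also called lower in SC10 than in SC01, as they were with libraries scaled by total counts (-0.19 and -0.20).

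The gene PPARGC1A, a coactivator that drives mitochondrial biogenesis and is a known target of MITF in melanoma, lay far above the shift (chr4:23755041-23904089). It had 451, 456 and 393 CPM in SC10 libraries, 474, 469.9 and 461 CPM in SC07 libraries and 30.4, 31.0 and 29.1 CPM in SC01 libraries. Its log2 difference was 3.96 ± 0.06 in SC07 and 3.85 ± 0.06 in SC10 against SC01. SPP1, the secreted phosphoprotein osteopontin, followed a like order, with 477, 460.2 and 489 CPM in SC10 libraries, 860.5, 855 and 824 CPM in SC07 libraries and 77.7, 83.5 and 84.2 CPM in SC01 libraries. SLC7A11, the cystine transporter, had 24.8, 24.8 and 20.6 CPM in SC10 libraries, 54.3, 55.6 and 54.8 CPM in SC07 libraries and 3.90, 3.79 and 3.77 CPM in SC01 libraries. For SPP1 and SLC7A11 all 3 clones were apart, with SC07 highest. Other genes far above the shift were CCSER1, at 3.98 ± 0.15 in SC07 and 3.89 ± 0.15 in SC10, and LRAT, at 3.60 ± 0.09 and 3.42 ± 0.09. In SC10 the largest rises among genes of at least 5 CPM were PPP2R2C, a regulatory subunit of protein phosphatase, at 4.88 ± 0.15, and CPLX1, a complexin of vesicle fusion, at 4.26 ± 0.13. These were also higher in SC10 than in SC07, by 2.63 ± 0.11 and 1.26 ± 0.09. ETNPPL, an enzyme of phosphoethanolamine breakdown, at 3.45 ± 0.12, and CDS1, an enzyme of phospholipid synthesis, at 3.43 ± 0.19, differed in SC10 from SC01 and were not called between SC10 and SC07.

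Against the shift, the chemokine genes CXCL1 and CXCL8, which attract neutrophils, were the protein-coding members named that lay lowest in SC07 relative to SC01. CXCL1 (chr4:73869393-73871242) had 7.19, 6.50 and 7.12 CPM in SC10 libraries, 1.07, 1.005 and 1.25 CPM in SC07 libraries and 59.0, 55.8 and 58.3 CPM in SC01 libraries. CXCL8 (chr4:73740506-73743716) had 1.23, 1.13 and 0.916 CPM in SC10 libraries, 0.213, 0.180 and 0.030 CPM in SC07 libraries and 8.52, 7.11 and 6.50 CPM in SC01 libraries. The 3 clones did not overlap for either gene, and SC07 was lowest. The log2 differences in SC07 against SC01 were -5.70 ± 0.10 for CXCL1 and -5.66 ± 0.27 for CXCL8, which had 15 counts over all SC07 libraries. In SC10 against SC01 they were -3.06 ± 0.07 and -2.75 ± 0.19. Of 13 chemokine genes of the cluster in the annotation, the other 11 did not pass the minimum.

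The windows before both starts, printed above, share the word GGAATTTCC. It lies from -91 to -83 before the RefSeq start of CXCL8 and from -78 to -70 before that of CXCL1. Read on both strands, it was found in 0.483% of 27303 promoter windows of 300 bases (250 before to 50 after the start) and in 4 of 381 members with a window. The word was picked after the sequences were seen, so its share is a description only. A TATAAA box lies from -31 to -26 before CXCL8 and is held by 12.1% of all windows. A match is not a bound site.

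**Figure D4:**
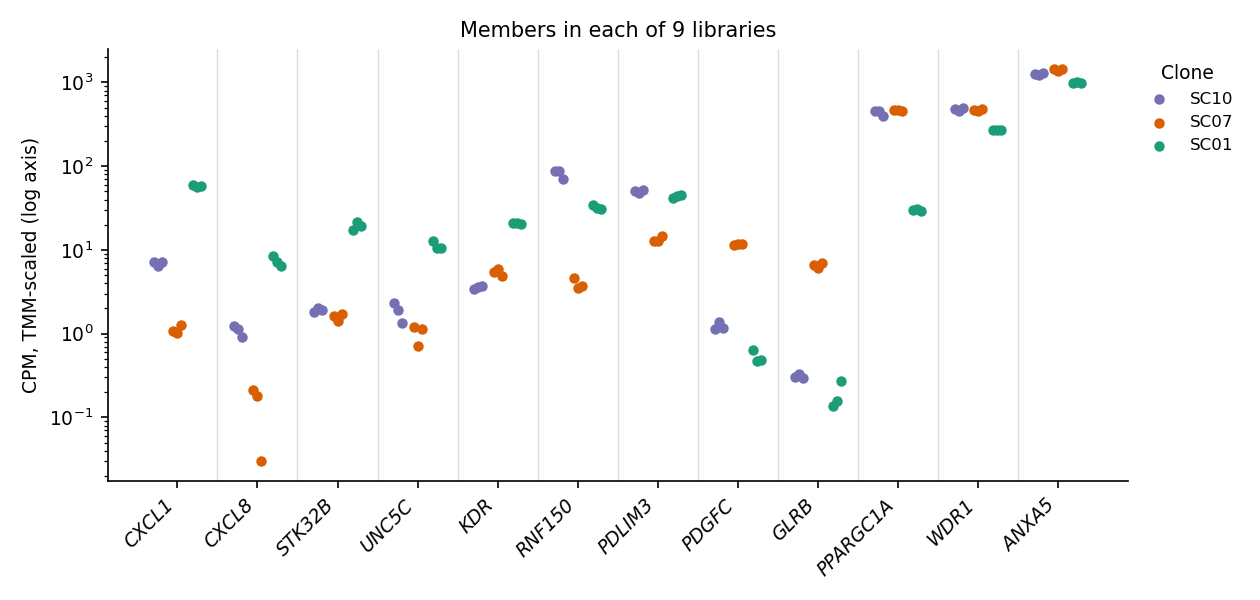
CPM, TMM-scaled, on a log axis, in each library of SC10, SC07 and SC01 for 12 members, from genes lower than the shift on the left to genes at or above it on the right. CXCL1 is at 1.005 to 1.25 CPM in SC07 and 55.8 to 59.0 CPM in SC01, while PPARGC1A is at 461 to 474 CPM in SC07 and 29.1 to 31.0 CPM in SC01.

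Further genes were lower in both SC07 and SC10 than in SC01. STK32B, a serine/threonine kinase, had 1.83, 2.05 and 1.92 CPM in SC10 libraries, 1.64, 1.42 and 1.73 CPM in SC07 libraries and 17.5, 21.8 and 19.5 CPM in SC01 libraries. UNC5C, a netrin receptor, had 2.34, 1.93 and 1.36 CPM in SC10 libraries, 1.19, 0.722 and 1.13 CPM in SC07 libraries and 12.7, 10.5 and 10.6 CPM in SC01 libraries. KDR, a receptor for vascular endothelial growth factors, had 3.46, 3.56 and 3.66 CPM in SC10 libraries, 5.51, 5.88 and 4.84 CPM in SC07 libraries and 21.2, 20.9 and 20.2 CPM in SC01 libraries. For each gene the SC01 libraries lay apart from all others. The log2 differences against SC01 were -3.62 ± 0.12 in SC07 and -3.34 ± 0.12 in SC10 for STK32B, -3.49 ± 0.18 and -2.58 ± 0.16 for UNC5C, and -1.94 ± 0.09 and -2.54 ± 0.10 for KDR. Smaller falls in SC10 were those of FHDC1, a formin (-1.18 ± 0.12), MAML3, a Notch coactivator (-1.06 ± 0.10), and ARHGAP24, which inactivates Rac (-1.0 ± 0.08). For ARHGAP24, 12.6% of exon bases lay under another gene.

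Other genes went against the shift in SC07 but not in SC10. RNF150, which encodes a RING finger protein (chr4:140859807-141212877), had 88.8, 88.5 and 70.2 CPM in SC10 libraries, 4.57, 3.53 and 3.70 CPM in SC07 libraries and 34.4, 31.7 and 30.8 CPM in SC01 libraries. PDLIM3, an actin-associated protein (chr4:185500660-185535612), had 50.3, 47.8 and 51.8 CPM in SC10 libraries, 12.7, 12.9 and 14.6 CPM in SC07 libraries and 41.7, 44.0 and 45.1 CPM in SC01 libraries. HPSE, the heparanase that cuts heparan sulphate, had 5.39, 4.98 and 5.76 CPM in SC10 libraries, 0.518, 0.567 and 0.448 CPM in SC07 libraries and 2.94, 1.96 and 2.10 CPM in SC01 libraries. All 3 genes were lowest in SC07 and highest in SC10, with no overlap between clones. In SC10 against SC07 the log2 differences were 4.40 ± 0.11 for RNF150, 1.90 ± 0.06 for PDLIM3 and 3.38 ± 0.20 for HPSE. ART3, of the ADP-ribosyltransferase family, was lower than SC01 in both clones, at -3.25 ± 0.15 in SC07 and -0.87 ± 0.12 in SC10. By contrast, SLIT2, an axon guidance ligand, was highest in SC07, with 1.12, 0.386 and 0.384 CPM in SC10 libraries, 5.63, 4.79 and 5.11 CPM in SC07 libraries and 0.577, 0.442 and 0.359 CPM in SC01 libraries. All SC07 libraries lay above all others, and the log2 difference in SC10 against SC07 was -3.01 ± 0.26. Without SC10 replicate 1 it was -3.73.

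By function, all 27 members of the mitochondrial list were called higher in SC07 against SC01. Their median log2 difference was 0.68. The list is broad and also holds PGRMC2, TRMT10A and the coactivator PPARGC1A, so it is not a count of mitochondrial proteins alone. In SC10 against SC01, 25 were called higher and 2 were not called, with a median of 0.65. These counts and those of the lists that follow stand beside 66.1% called higher and 13.9% lower over all members in SC07 against SC01, 62.0% and 13.3% in SC10 against SC01, and 101 higher and 147 lower of 505 in SC10 against SC07. HADH, of fatty acid oxidation, had 57.4, 57.6 and 59.9 CPM in SC10 libraries, 73.1, 72.3 and 75.7 CPM in SC07 libraries and 53.9, 57.9 and 58.6 CPM in SC01 libraries. It was called in SC07 (0.38 ± 0.05) and not in SC10 (0.04 ± 0.05) against SC01, and was lower in SC10 than in SC07 (-0.34 ± 0.05). The ADP/ATP carrier SLC25A4 had 142, 148 and 158 CPM in SC10 libraries, 182, 185 and 189 CPM in SC07 libraries and 62.0, 64.4 and 63.5 CPM in SC01 libraries. ETFDH had 38.1, 36.6 and 39.3 CPM in SC10 libraries, 46.1, 46.6 and 41.0 CPM in SC07 libraries and 14.4, 15.4 and 14.8 CPM in SC01 libraries. SC01 was lowest for both, and the log2 differences were 1.55 ± 0.05 in SC07 and 1.24 ± 0.05 in SC10 for SLC25A4, and 1.58 ± 0.06 and 1.35 ± 0.06 for ETFDH. ACSL1, which activates long-chain fatty acids, was at 1.19 ± 0.04 in SC10. Between SC10 and SC07, 6 of the 27 were called higher in SC10 and 11 lower, among them MCUB of the mitochondrial calcium uniporter (-1.07 ± 0.16).

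The 26 members of cell cycle and chromosome segregation had smaller medians than the chromosome, 0.23 in SC07 and 0.17 in SC10 against SC01. In SC07, 15 were called higher and the other 11 were not called. In SC10, 15 were called higher and 4 lower, and with libraries scaled by total counts 6 were called higher and 4 lower. CCNA2, which encodes a cyclin, had 46.0, 50.7 and 50.1 CPM in SC10 libraries, 67.6, 68.4 and 68.4 CPM in SC07 libraries and 60.1, 58.9 and 60.4 CPM in SC01 libraries. MAD2L1, of the spindle checkpoint, had 46.3, 45.3 and 48.6 CPM in SC10 libraries, 62.9, 62.3 and 66.2 CPM in SC07 libraries and 61.7, 57.9 and 59.3 CPM in SC01 libraries. Both were lowest in SC10, at -0.48 ± 0.05 and -0.45 ± 0.05 in SC10 against SC07. In that comparison 8 of the 26 were called lower and the other 18 were not called. RFC1, of the clamp loader in DNA replication, was higher than in SC01 in both clones, at 0.67 ± 0.05 in SC07 and 0.56 ± 0.05 in SC10.

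Among 18 chromatin regulators, 12 were called higher and 4 lower in SC07 against SC01, and 8 higher and 3 lower in SC10 against SC01, with medians of 0.28 and 0.08. With libraries scaled by total counts, the median in SC10 was -0.03. TET2, which oxidises methylated cytosine, was higher in SC07 than in SC01 by 0.58 ± 0.10. Among 17 genes of ribosomal proteins and translation, 11 were called higher and 1 lower in SC07, and 13 higher and 2 lower in SC10 against SC01. Their medians were 0.24 and 0.41. SEC24B, of the coat of transport vesicles, was in this list and at 0.67 ± 0.05 in SC07 and 0.55 ± 0.05 in SC10.

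Adhesion and matrix genes were split. Of 16 members, 6 were called higher and 9 lower in SC07 against SC01, with a median of -1.06. SC10 against SC01 had 8 called higher and 5 lower, with a median of 0.23, and in SC10 against SC07, 10 were called higher and 2 lower. SPON2, a secreted matrix protein, had 1.31, 1.48 and 1.24 CPM in SC10 libraries, 0.274, 0.232 and 0.239 CPM in SC07 libraries and 2.94, 3.25 and 3.38 CPM in SC01 libraries. FRAS1, of the basement membrane, had 0.164, 0.059 and 0.354 CPM in SC10 libraries, 0.122, 0.515 and 0.328 CPM in SC07 libraries and 2.06, 2.56 and 2.31 CPM in SC01 libraries. SPON2 separated all clones, and FRAS1 separated SC01 from the other clones. FRAS1 reached 1 CPM in SC01 libraries only, so its separation is tied to the minimum for members and supports nothing. Both lie among members of low level. LDB2, a cofactor of LIM domain factors, had 263 counts in SC10, 5 in SC07 and 39 in SC01 over all libraries of each clone. By these counts LDB2 could not have passed the minimum without SC10 libraries, so its higher level there is also tied to it.

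Growth factors and receptor kinases had 8 members of 18 genes on the chromosome. In SC07 against SC01, 6 were called higher and 1 lower, with a median of 0.74, and in SC10, 6 higher and 2 lower, with a median of 0.65. VEGFC, a growth factor of lymphatic vessels, had 7.38, 7.74 and 6.91 CPM in SC10 libraries, 5.57, 6.37 and 5.58 CPM in SC07 libraries and 1.29, 1.49 and 1.11 CPM in SC01 libraries. EGF had 0.817, 0.742 and 1.12 CPM in SC10 libraries, 4.54, 5.18 and 3.52 CPM in SC07 libraries and 3.85, 3.03 and 3.95 CPM in SC01 libraries. VEGFC was lowest in SC01 and EGF lowest in SC10. The log2 difference of VEGFC was 2.18 ± 0.15 in SC07 and 2.50 ± 0.14 in SC10 against SC01, and that of EGF in SC10 -2.02 ± 0.20. FGFBP2, which binds fibroblast growth factors, was at 2.71 ± 0.09 in SC07 and 2.20 ± 0.09 in SC10, with 13.3% of its exon bases under another gene.

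Of 15 members of the channel and transporter list, 12 were called higher and 2 lower in SC07 against SC01, with a median of 2.05. In SC10 against SC01, 11 were called higher and 3 lower, with a median of 0.70. The list also holds JAKMIP1, which is microtubule-associated, and GLRB, and the separation of both is tied to the minimum for members. These counts and medians are therefore not those of channels alone. SLC39A8, a zinc importer, was at 2.25 ± 0.06 in SC10. ATP8A1, a phospholipid flippase, was lower in SC10 than in SC07, at -2.04 ± 0.11. In SC10 against SC07, 1 of the 15 was called higher and 8 lower. Innate immunity and interferon genes had 14 members, with 13 called higher and 1 lower in SC07 and 10 higher, with the other 4 not called, in SC10 against SC01. Their medians were 0.82 and 0.64. TLR3, a receptor for double-stranded RNA, was at 1.16 ± 0.13 in SC07, and CASP6, a caspase, was at 1.31 ± 0.12 in SC07 and 1.22 ± 0.13 in SC10.

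In the neurodegeneration and ubiquitin list of 19 members, 16 were called higher and 2 lower in SC07 and 14 higher and 1 lower in SC10, with medians of 0.44 and 0.43. Among 20 genes of proteoglycans, lysosomes and membrane traffic, 15 were called higher and 1 lower in SC07 and 17 higher, with the other 3 not called, in SC10, with medians of 0.46 and 0.47. SCARB2, a lysosomal membrane protein, was at 0.96 ± 0.04 in SC10. Of 7 axon guidance and Wnt members, 3 were called higher and 3 lower in SC07 and 2 higher and 1 lower in SC10. Their medians were 0.16 and 0.06, the SC10 value becoming -0.05 with libraries scaled by total counts. Only 4 of 22 genes of the alcohol dehydrogenase and UGT2 list were members. HPGD, which degrades prostaglandins, had 13.7, 14.6 and 13.7 CPM in SC10 libraries, 25.2, 25.2 and 22.8 CPM in SC07 libraries and 2.23, 2.75 and 2.07 CPM in SC01 libraries. In that list 3 were called higher in SC07 and 2 in SC10 against SC01, and the others were not called.

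Genes that start back to back had smaller differences between partners than other neighbours. In 23 pairs of protein-coding members on opposite strands with 5′ ends within 300 bases, the median size of the difference between partners was 0.28 in SC07 against SC01, beside 0.68 in 413 other neighbouring pairs. In SC10 against SC01 it was 0.27, beside 0.62. With both genes at 10 CPM or more, it was 0.27 in 16 pairs beside 0.49 in 213 in SC07, and 0.28 beside 0.50 in SC10. No test was made, and exon overlap within a pair was not removed. G3BP2, of stress granules, had 736, 745 and 693 CPM in SC10 libraries, 794, 802 and 805 CPM in SC07 libraries and 292, 294 and 292 CPM in SC01 libraries. USO1, a vesicle tether of the Golgi, had 190.3, 198 and 189 CPM in SC10 libraries, 173, 174 and 166 CPM in SC07 libraries and 101, 94.9 and 89.8 CPM in SC01 libraries. Both lay above the chromosome median, at 1.45 ± 0.04 and 0.85 ± 0.05 in SC07 and 1.31 ± 0.04 and 1.01 ± 0.05 in SC10. Their 5′ ends lie 68 bases apart on either side of the G3BP2 stretch printed above, which holds 4 CG. The widest gap was in the pair of C4orf46 and ETFDH, at 0.52 and 1.58 in SC07 and 0.07 and 1.35 in SC10, and 13.8% of the exon bases of ETFDH lie under another gene.

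Promoter composition was read from RefSeq windows of 300 bases, which matched 381 of 436 protein-coding members (87.4%). The median window of members within 0.5 of the chromosome median held 28 CG in both comparisons with SC01. In members more than 1 below the median it held 17 CG in SC07 (29 members) and 16.5 in SC10 (22 members), and in those more than 1 above it 24 in each (39 and 35 members). Levels differed as well. The median level was 28.6 CPM within 0.5 of the median and 7.71 CPM more than 1 below it in SC07. Among members of at least 10 CPM the medians in SC07 were 28 CG within 0.5, 20 above and 16 below, the last from 10 members. In SC10 they were 28, 15.5 and 31, the last from 5 members, so the order of genes below the median turned round there. These classes come from the contrasts by which the chromosome was chosen and are described without a test.

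**Figure D5:**
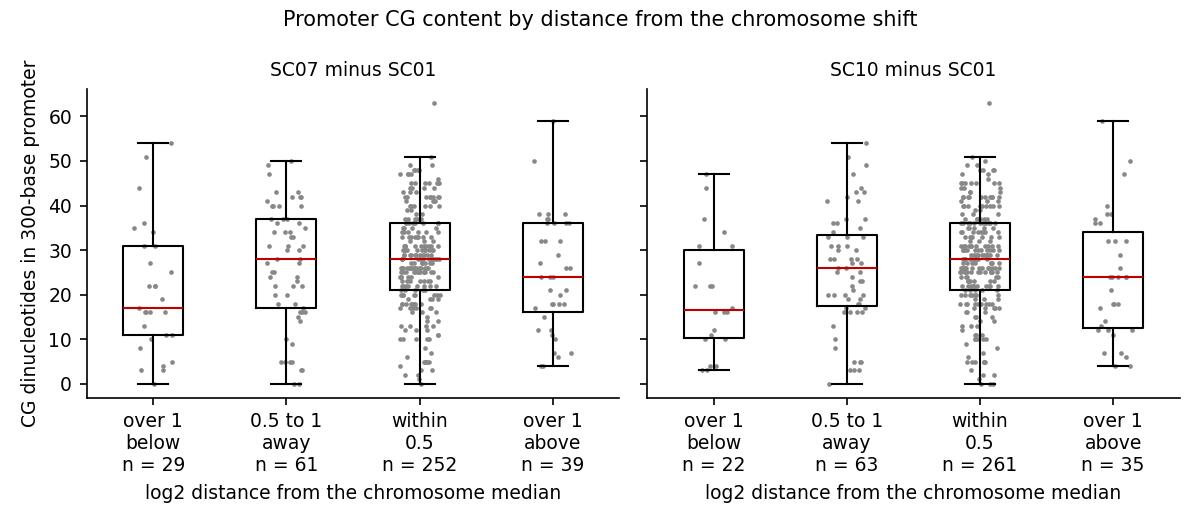
Number of CG dinucleotides in the 300-base promoter window (vertical axis) of 381 protein-coding members, grouped by log2 distance from the chromosome median in SC07 minus SC01 and SC10 minus SC01 (horizontal axis). Boxes give the median and quartiles, whiskers reach up to 1.5 times the box, and points are genes. The median is 28 within 0.5 of the chromosome median and 17 or 16.5 more than 1 below it.

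Members with very few counts in a clone are given by their counts. JAKMIP1, a microtubule-associated gene with 80.8% of its exon bases under another gene, had 308 counts in SC10, 43 in SC07 and 1 in SC01, a ratio of 41.5 (95% interval 7.06 to 1676) in SC07 and of 299.7 (53.4 to 11880.0) in SC10 against SC01. The antisense gene AC093607.1 had 148 counts in SC10, 119 in SC07 and 0 in SC01, at least 38.3-fold higher in SC07 and at least 48.0-fold higher in SC10 with 3 counts over SC01 as the limit. The lincRNA AL590235.1 had 796 counts in SC10, 2 in SC07 and 84 in SC01, and was lower in SC07 than in SC01 by a ratio of 43.5 (11.7 to 365). Intervals and limits cover counting error only. By their counts, JAKMIP1 and AL590235.1 could not have passed the minimum for members without SC10 libraries. Their differences between SC10 and the other clones are therefore tied to the minimum and support nothing.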

How the data were processed

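RNA sequencing of 9 libraries of SK-MEL-5 subclones, 3 per clone, was analysed from raw read counts that the authors deposited for 60675 Ensembl gene IDs. Per the submitters' processing notes, reads were handled with HISAT2 and featureCounts on GRCh38. Tool versions, strand use and the handling of multi-mapping reads, not given in the sources used here, can change counts of overlapping genes, pseudogenes and copies. Positions and names came from GENCODE 29, which placed 57055 rows. Of the 3620 not placed, 61 passed the minimum and are not analysed here.

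Libraries were grouped by their labels. Counts of 18009 genes kept by filterByExpr were TMM-scaled and entered 1 model of the 9 libraries in edgeR 4.0.16 (R 4.3.3, quasi-likelihood with robust estimation, clone as the only term, Benjamini-Hochberg threshold 0.05 over all 18009 genes). The fit was tested on simulated data. CPM values are TMM-scaled, and per-library shifts use log2 CPM with a prior count of 2. Standard errors were derived from the log2 difference and its F statistic. Segments were fitted by least squares with differences clipped at 1.5, at least 15 genes each and a penalty factor of 3. The p arm was taken as starts below 50 Mb. At these depths 3 counts equal 0.0760 to 0.0993 CPM.

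The members, the 13 gene lists and the tests were chosen with earlier results of these data known. Named genes were the 8 protein-coding members furthest against their segment and the 6 furthest with it among those called, not overlapping and with at least 5 CPM in the higher clone, the 3 of highest level per arm, up to 4 per list, and PPARGC1A, KIT, PDGFRA and KDR. SPP1, SLC7A11, LRAT, RPL34, CTSO, FAM198B, TMEM144, USO1, C4orf46 and members with few counts were named, or named outside their comparison, after their values were seen. Some genes under this rule are left out of the text. Alternatives were other scalings, filters and gene classes, DESeq2 1.42.0, limma-voom 3.58.1, other segment penalties, a replicate block and omission of single libraries. Same-numbered libraries deviated from their clone means with correlations of -0.0195 to 0.0429, so the numbers do not pair libraries. Within each clone, libraries were further apart than sampling noise allows, and each was kept as a sample of its own.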

Additional observations from a re-analysis of the deposited data

How the results depend on the processing

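With libraries scaled by total counts, the median over chromosome 4 members was 0.289 in SC07 against SC01 and 0.218 in SC10 against SC01. That scaling moved the median of all genes to -0.117 and -0.124, so the members lay 0.406 and 0.342 above it. In SC07 the median was 0.406 with no filter, 0.378 with 1 CPM in 3 libraries as the filter of the fit, 0.428 over protein-coding members and 0.421 over members of at least 10 CPM. In SC10 it was 0.342 over protein-coding members and 0.345 relative to the other chromosomes. Halving the segment penalty gave 6 segments, and the cause was not tested. Leaving out each library in turn gave medians of 0.379 to 0.404 in SC07 against SC01, 0.312 to 0.354 in SC10 against SC01 and -0.0687 to -0.0432 in SC10 against SC07, and called 383 to 412, 363 to 386 and 203 to 249 members. With replicate number as a block, 409, 381 and 253 members were called, with medians of 0.395, 0.329 and -0.0696, and since the numbers do not pair libraries this is no paired analysis. DESeq2 called 397, 374 and 224 members and limma-voom 401, 379 and 246. With total counts, 2 list medians in SC10 changed sign (chromatin regulators, and axon guidance and Wnt). Under the main scaling, the promoter CG order in SC10 turned round when only members of at least 10 CPM were kept. Signs also changed for differences near 0 that were not called. RPL9 in SC07 against SC01 was -0.0038, 0.00656 with no filter and -0.0226 to 0.0257 with single libraries left out. In SC10 against SC07, leaving out single libraries gave -0.00695 to 0.0537 for WDR1 and -0.117 to 0.0351 for RPS3A. Among other values of single genes under alternatives, 2776 kept direction and side of the threshold, 8 no longer passed it and 11 newly did. Members near 1 CPM rest on few counts, and differences between clones cannot be told apart from differences between cultures or library batches.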
